A study of Mus musculus with 58 samples.

Results

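Ccr2, Cx3cr1, Ccr1 and Cxcr4 are 4 chemokine receptors of blood monocytes and tissue macrophages, and their messenger RNA was followed across liver macrophages and monocytes of mice with cholestasis, colitis or both. The 4 genes were taken by name from the 25307 genes of the deposited table. The 58 libraries came from livers of 129SV mice and cover Kupffer cells (KC, the resident macrophages of the liver, 20 libraries), monocyte-derived macrophages (MoMF, 19 libraries) and monocytes (Mo, 19 libraries). Control mice were labelled Sham6w. Ligation of the common bile duct was studied at 2 weeks, the onset of cholestatic injury (CBDL2w), and at 6 weeks, advanced injury (CBDL6w). The label DSS stands for acute colitis alone, and CBDL+DSS for mice with advanced cholestasis that received acute colitis on top. The labels give no genotype, sex or age, no way of sorting the cells, no time for DSS or CBDL+DSS, and no control other than the one at 6 weeks. Each group had 4 libraries, except Sham6w MoMF and Sham6w Mo with 3 each, and 9 libraries pooled 2 or 3 replicate numbers.

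Chemokine receptors are 7-pass membrane proteins that couple to inhibitory G proteins and steer cells along gradients of small secreted proteins, the chemokines. Ccr2 binds Ccl2 and its relatives and is known for the release of classical monocytes from bone marrow and their entry into injured liver. Cx3cr1 binds the membrane-anchored chemokine Cx3cl1 and is known for patrolling monocytes and for several tissue macrophages, with little in resting Kupffer cells. Ccr1 binds Ccl3, Ccl5, Ccl6 and Ccl9 and acts in adhesion and recruitment, and Cxcr4 binds Cxcl12 and holds leukocytes in bone marrow.

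Between 118687 and 521954 reads were recovered per library, and 8885 to 13360 genes were detected. Values below are normalized counts, and a change is the difference between group means of log2(normalized count + 1), given with its standard error and with a p adjusted over all genes of the comparison (limma). Apart from the replicate numbers, nothing in the labels says that libraries came from separate mice, so the p-values speak only of the scatter among these libraries, which may be technical. The cell labels were checked against marker genes: Clec4f, a Kupffer cell lectin, stood at 453 ± 34.7 (SD, n = 4) in Sham6w KC against 78.4 ± 43.6 (n = 3) in MoMF and 16.8 ± 9.65 (n = 3) in Mo, and Ly6c2, a surface protein of classical monocytes, stood at 0.684 ± 1.01, 8.03 ± 1.54 and 173 ± 47.3. In libraries of many cells, a change in which cells were collected and a change in messenger RNA per cell cannot be told apart. The Sham6w MoMF library of replicates 1+2+5 was the shallowest of all (118687 reads) and the highest of its group in Ccr2, Cx3cr1 and Cxcr4, and results that turn on it are given with and without it.

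**Figure D1:**
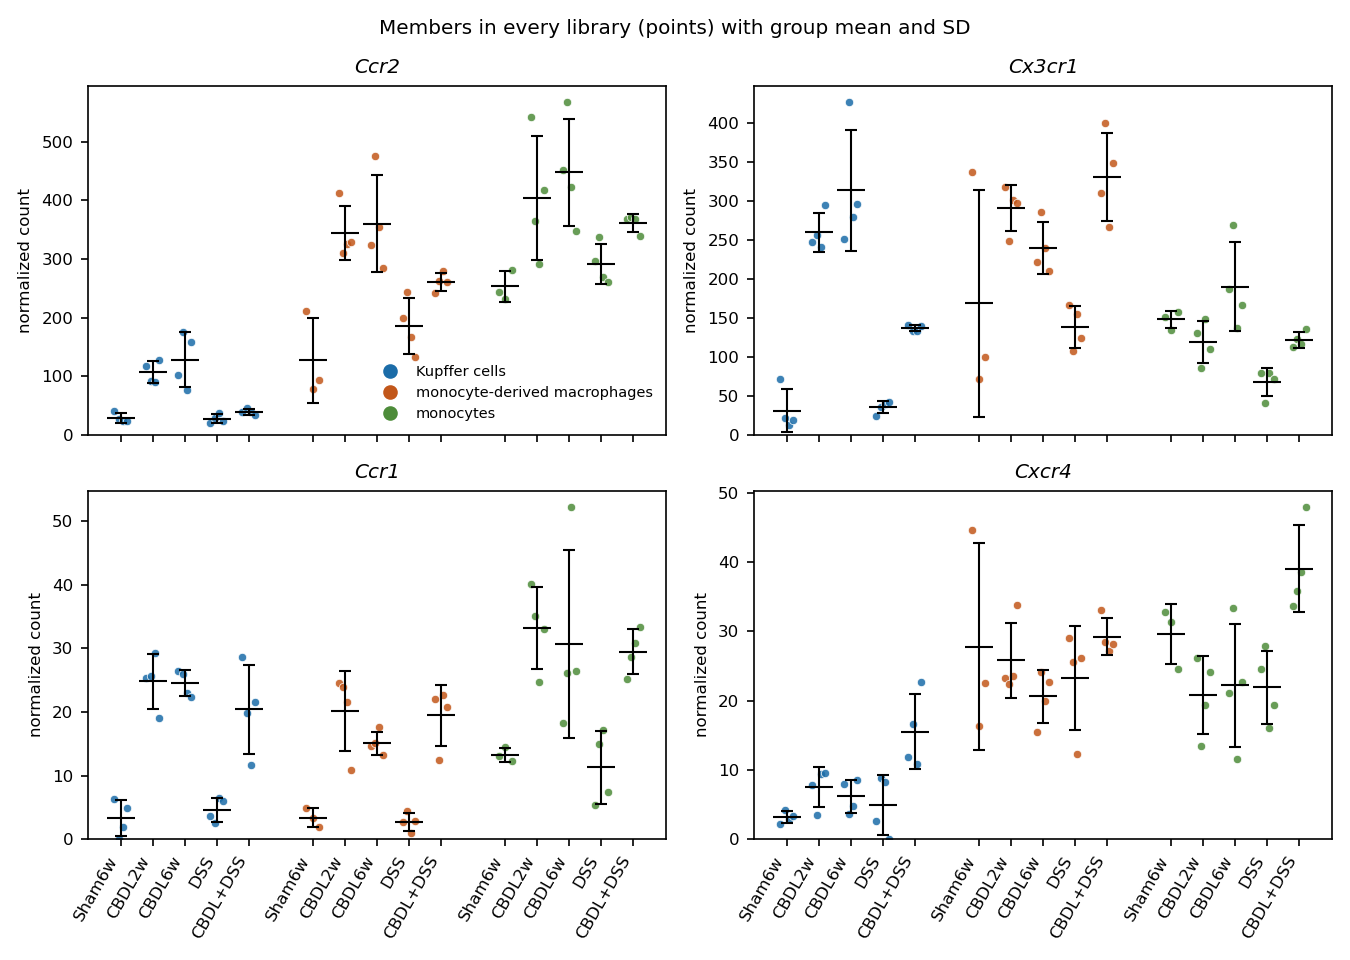
Normalized count of each receptor (vertical axes, starting at 0) in every library, with groups along the horizontal axis. Points are libraries, bars are the group mean with 1 SD; Kupffer cells of both ligated groups lie between 76.8 and 176 in Ccr2 and between 241 and 427 in Cx3cr1, above all 4 control libraries.

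In Kupffer cells, Ccr2, Cx3cr1 and Ccr1 rose with ligation at both times, and none of the 4 receptors passed with colitis alone. Of all 6159 genes tested there, 2.71% passed at 2 weeks of ligation (1.09% higher) and 3.25% at 6 weeks (1.22% higher). Ccr2 (ENSMUSG00000049103, GRCm38 chromosome 9, 124101950 to 124113557, plus strand) stood in the Sham6w libraries at 40.5, 27.3, 23.8 and 22.4. It stood at 118, 91.8, 90.3 and 127 in CBDL2w and at 102, 176, 76.8 and 158 in CBDL6w. All 8 ligated libraries lay above all 4 controls. The log2 change was 1.89 ± 0.26 at 2 weeks (adjusted p = 5.74e-05) and 2.09 ± 0.26 at 6 weeks (adjusted p = 2.87e-05).

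With colitis the Ccr2 level of Kupffer cells lay near that of the controls. With DSS alone the libraries stood at 19.7, 28.8, 36.6 and 22.8, overlapping the controls, and the log2 change was -0.08 ± 0.26 (adjusted p = 0.892; 0.02 with equal totals) where 7.89% of all genes passed. With CBDL+DSS the libraries stood at 38.3, 45.7, 38.1 and 32.8, which overlapped the control libraries (0.46 ± 0.26, adjusted p = 0.418; 3.31% of genes passed, 1.61% higher). Every CBDL+DSS library lay below every CBDL6w library. Against CBDL6w, Ccr2 fell by 1.63 on the log2 scale (SE 0.26, adjusted p = 0.00274), the one of the 4 receptors that passed in that comparison, where 1.74% of genes did (0.796% lower).

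Cx3cr1 (ENSMUSG00000052336, chromosome 9, 119901616 to 120069879, minus strand) had the largest change of the 4 genes in Kupffer cells with CBDL2w and CBDL6w. Sham6w libraries stood at 71.3, 21.8, 11.9 and 18.3, with replicate 1 apart from the others. CBDL2w libraries stood at 247, 256, 241 and 295, and CBDL6w libraries at 251, 427, 280 and 297. The ligated and control libraries did not overlap, and the log2 changes were 3.36 ± 0.33 (adjusted p = 3.24e-06) and 3.61 ± 0.33 (adjusted p = 4.49e-07). In CBDL+DSS all libraries lay between 133 and 141, above the controls (2.44 ± 0.33, adjusted p = 3.97e-05) and below every CBDL6w library. The step from CBDL6w to CBDL+DSS missed the threshold (-1.16 ± 0.33, adjusted p = 0.0756) and passed with edgeR (-1.22, adjusted p = 0.0342), with DESeq2, with a pseudocount of 5, and without Sham6w replicate 1 or 3.

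With colitis alone, Cx3cr1 of Kupffer cells stood at 24.1, 35, 39.3 and 41.7, and the change was 0.48 ± 0.33 (adjusted p = 0.401). Sham6w replicate 1 decided that result. Without it the change was 0.99 (adjusted p = 0.0119), while the changes with ligation were 3.87 and 4.11. The annotated span of Cx3cr1 covers 9 other genes, and Csrnp1 on the same strand averaged 28.28 over all libraries, so reads at the shared span could be split between both genes by the counting.

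Ccr1 (ENSMUSG00000025804, chromosome 9, 123962124 to 123968692, minus strand) was near the detection floor in control Kupffer cells, at 6.39, 0, 1.99 and 4.98. It stood at 25.3, 25.7, 29.2 and 19 in CBDL2w and at 26.4, 26, 23 and 22.4 in CBDL6w. No ligated library came near a control. Kupffer cell libraries reached a count of 10 only with ligation, so Ccr1 passed the low-value filter there through those groups, and its p-values do not account for that. The log2 change was 2.91 ± 0.46 at both times (adjusted p = 0.000436 and 0.000509). Unlike Ccr2, the Ccr1 level in CBDL+DSS (28.6, 19.9, 11.7 and 21.5) was above all controls (2.60 ± 0.46, adjusted p = 0.00143) and its difference from CBDL6w was -0.31 ± 0.46 (adjusted p = 0.813). With colitis alone it stood between 2.5 and 6.41, overlapping the controls (0.66 ± 0.46, adjusted p = 0.419).

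Cxcr4 (ENSMUSG00000045382, chromosome 1, 128588199 to 128592293, minus strand) was low in Kupffer cells of every group. The Sham6w libraries stood at 2.13, 4.24, 2.98 and 3.32, those of CBDL2w at 7.84, 3.43, 9.45 and 9.51, those of CBDL6w at 7.93, 3.59, 4.8 and 8.53 and those of DSS at 2.68, 8.76, 8.24 and 0. These overlapped the controls. The highest were the CBDL+DSS libraries at 11.8, 16.6, 10.9 and 22.7, each above every control and every CBDL6w library. Only these reached 10, so Cxcr4 passed the low-value filter in Kupffer cells through this group alone, and its p-values do not account for that. The changes, 0.98 ± 0.58, 0.75 ± 0.58, 0.06 ± 0.58 and 1.95 ± 0.58 for CBDL2w, CBDL6w, DSS and CBDL+DSS, did not pass. That of CBDL+DSS (adjusted p = 0.0676) passed with edgeR (2.21, adjusted p = 0.0329), with DESeq2 (2.25, adjusted p = 0.00698), with a pseudocount of 5 (1.3, adjusted p = 0.019) and without DSS replicate 4 (adjusted p = 0.015), a library in which Cxcr4 had 0 reads.

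**Figure D2:**
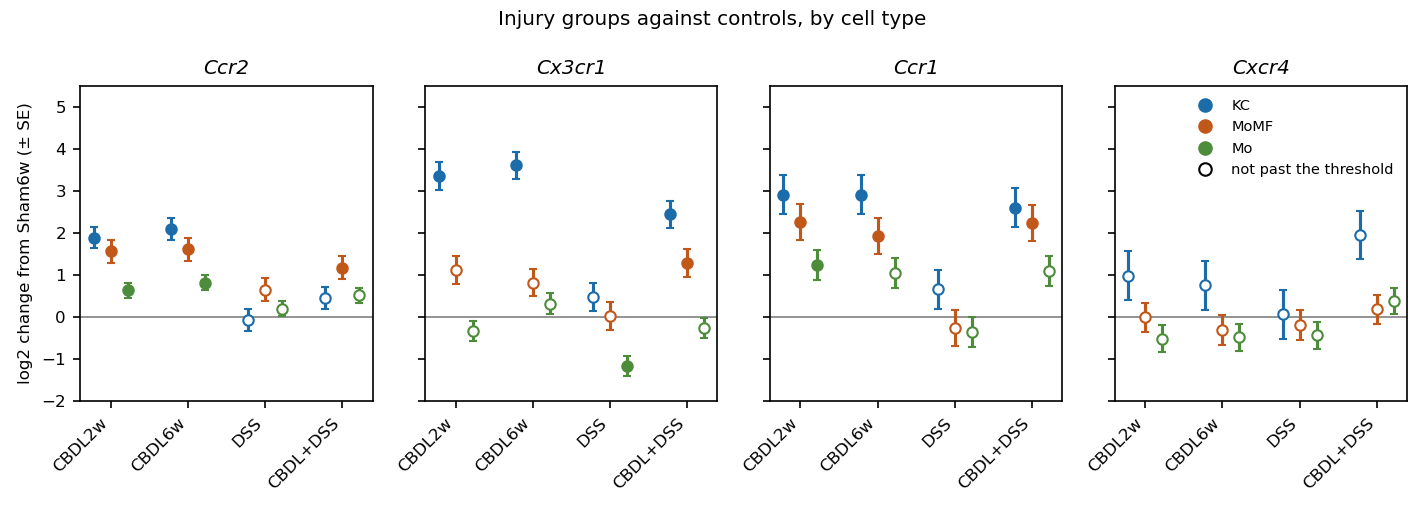
Log2 change of each receptor from Sham6w (vertical axis, ± SE from the fit) in the 4 injury groups, with cell types by color; filled points passed the threshold. Ccr2, Cx3cr1 and Ccr1 of Kupffer cells lie between 1.89 and 3.61 in both ligated groups, and no Cxcr4 point is filled.

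Between the 2 ligated times no receptor passed in any of the 3 cell types. Changes from CBDL2w to CBDL6w in Kupffer cells were -0.01 ± 0.46 for Ccr1, 0.20 ± 0.26 for Ccr2, 0.25 ± 0.33 for Cx3cr1 and -0.23 ± 0.58 for Cxcr4. In MoMF and Mo the largest was 0.66 ± 0.22 for Cx3cr1 of Mo (adjusted p = 0.55). Between CBDL6w and CBDL+DSS no receptor passed in MoMF (4.16% of genes did) or Mo (0.573%); the changes ran from -0.59 to 0.86. The difference in the effect of colitis passed for no receptor in Mo, where 0.311% of genes passed. From CBDL2w to CBDL6w limma called 0% of the genes in KC and in Mo (449 and 404 genes at an unadjusted p under 0.05; edgeR called 0 and DESeq2 10 and 7) and 0.0823% in MoMF.

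Whether colitis acted differently on a ligated liver was tested as the difference between CBDL+DSS minus CBDL6w and DSS minus Sham6w. In Kupffer cells it was negative for Ccr2 (-1.56 ± 0.36, adjusted p = 0.0145) and for Cx3cr1 (-1.65 ± 0.46, adjusted p = 0.0355), 2 of 4 receptors where 6.02% of genes passed, 2.27% with a negative value. Ccr1 (-0.97 ± 0.65, adjusted p = 0.428) and Cxcr4 (1.14 ± 0.82, adjusted p = 0.461) did not pass. The Cx3cr1 call was lost with edgeR (-1.45, adjusted p = 0.0642), without the filter on low values (adjusted p = 0.0862) and on leaving out any of 12 libraries, namely CBDL6w replicates 2 and 4, Sham6w and DSS replicates 2, 3 and 4, or any CBDL+DSS library (-1.32 to -1.66), and with only libraries of a single replicate number (adjusted p = 0.0961). The labels do not say whether the time after ligation matched between CBDL6w and CBDL+DSS.

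Markers of resident and of recruited cells moved in the same Kupffer cell libraries. The summed share of reads from 11 Kupffer cell markers, all detected in every group, was 0.978% to 1.07% in Sham6w, 0.441% to 0.594% in CBDL2w, 0.33% to 0.637% in CBDL6w, 0.703% to 0.868% in DSS and 0.637% to 0.801% in CBDL+DSS. The share from 8 classical monocyte markers was 0.0121% to 0.0224% in Sham6w (7 of 8 detected, Ly6c1 at 0), 0.0258% to 0.0446% in CBDL2w, 0.02% to 0.0254% in CBDL6w, 0.0386% to 0.0853% in DSS and 0.0148% to 0.0391% in CBDL+DSS. The Kupffer cell share was lowest in CBDL2w and CBDL6w, the groups highest in Ccr2, Cx3cr1 and Ccr1. The monocyte share was highest with DSS, where none of the 3 receptors passed. Over all 8 monocyte markers the share in CBDL6w was 0.02% to 0.0254% in Kupffer cells, 0.1% to 0.183% in MoMF and 0.352% to 0.48% in monocytes. The part of these markers in the receptor levels was not tested.

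In monocyte-derived macrophages, Ccr2 and Ccr1 rose in all 3 groups with ligation, and neither passed with DSS alone. The genes passing there made up 3.06%, 1.22%, 2.07% and 9.8% of the 6079 tested for CBDL2w, CBDL6w, DSS and CBDL+DSS, and those that were higher 1.69%, 0.411% and 4.61% with ligation. Ccr2 stood at 211, 77.1 and 93.3 in Sham6w, at 412, 310, 325 and 329 in CBDL2w, at 324, 476, 354 and 284 in CBDL6w, and at 242, 262, 279 and 261 in CBDL+DSS. The control values did not reach any of these, also with the high library of replicates 1+2+5 (211) included. The log2 changes were 1.56 ± 0.27 (adjusted p = 0.00176), 1.61 ± 0.27 (adjusted p = 0.00263) and 1.17 ± 0.27 (adjusted p = 0.00737). With DSS the libraries stood at 199, 244, 166 and 132 and overlapped the controls through that 1 library. The change with DSS, 0.65 ± 0.27 (adjusted p = 0.215), became 1.08 without it (adjusted p = 0.0135), and the difference in the effect of colitis for Ccr2 went from -1.08 ± 0.37 (adjusted p = 0.151; 2.09% of genes passed) to -1.51 (adjusted p = 0.00488). Markers moved in the same libraries: the summed share of the 8 classical monocyte markers, all detected in every MoMF group, was 0.0513% to 0.0605% in Sham6w, 0.132% to 0.143% in CBDL2w, 0.1% to 0.183% in CBDL6w, 0.122% to 0.163% in DSS and 0.0412% to 0.0798% in CBDL+DSS. It lay above the controls with DSS, where Ccr2 and Ccr1 did not pass, and overlapped them with CBDL+DSS, where both did. Its part in these levels was not tested.

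Ccr1 of monocyte-derived macrophages stood at 4.95, 3.26 and 1.96 in Sham6w and at 2.65, 4.44, 0.946 and 2.91 in DSS. In CBDL2w it stood at 24.6, 23.9, 21.6 and 10.9, in CBDL6w at 14.6, 15.1, 17.6 and 13.3, and in CBDL+DSS at 22.1, 12.4, 22.6 and 20.8. Libraries fell into a low set without ligation and a higher set with it, with no overlap. The low set was near the detection floor, with 2, 3 and 2 reads in Sham6w and 3, 4, 1 and 3 in DSS. A count of 10 was reached only with ligation, so Ccr1 passed the low-value filter in MoMF through those groups, and its p-values do not account for that. The changes were 2.27 ± 0.43 (adjusted p = 0.0037), 1.93 ± 0.43 (adjusted p = 0.0236) and 2.24 ± 0.43 (adjusted p = 0.00187), against -0.27 ± 0.43 with DSS (adjusted p = 0.804). The call in CBDL6w was lost without the filter on low values (adjusted p = 0.0795) and without CBDL6w replicate 1 (1.94), CBDL6w replicate 3 (1.86) or Sham6w replicate 4+6 (1.67).

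For Cx3cr1 in monocyte-derived macrophages the result rested on 1 control library. Sham6w stood at 337 in replicate 1+2+5 and at 71.7 and 99.2 in the other two. The ligated libraries stood at 318, 249, 301 and 298 in CBDL2w, at 222, 286, 240 and 210 in CBDL6w and at 311, 400, 267 and 349 in CBDL+DSS. The 1 high control lay within or above these groups and the other two below all of them. With all libraries the changes were 1.11 ± 0.33 (adjusted p = 0.0683), 0.82 ± 0.33 (adjusted p = 0.246) and 1.28 ± 0.33 (adjusted p = 0.0161). Without that library they were 1.77 (adjusted p = 4.08e-05), 1.49 (adjusted p = 0.000959) and 1.95 (adjusted p = 8.04e-06). The CBDL+DSS call was lost without Sham6w replicate 3 (0.84, adjusted p = 0.0842) or 4+6 (1.07, adjusted p = 0.0641). With DSS, at 166, 108, 155 and 124, the change was 0.02 ± 0.33 (adjusted p = 0.987). In the Sham6w MoMF libraries the summed share of 9 T and NK cell markers in the table was 0.00927% to 0.044% (9 of 9 detected), against 0.000553% to 0.00208% in CBDL+DSS (6 of 9), and that of the 11 Kupffer cell markers 0.115% to 0.397% and 0.0849% to 0.188%. The part of such cells in these levels was not tested.

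Monocytes had the highest mean Ccr2 of the 3 cell types in each injury group, and it rose with ligation alone. The share of genes passing was larger here, 13.8% for CBDL2w (8.05% higher), 11.2% for CBDL6w (5.87% higher), 1.59% for DSS (0.54% lower) and 13.1% for CBDL+DSS, of 6112 tested. Sham6w libraries stood at 244, 232 and 282 for Ccr2, and CBDL2w libraries at 543, 364, 291 and 417. CBDL6w libraries stood at 452, 568, 423 and 348, and CBDL+DSS libraries at 369, 371, 369 and 339. Each ligated library lay above all 3 controls. The change passed in CBDL2w (0.64 ± 0.18, adjusted p = 0.0189) and CBDL6w (0.81 ± 0.18, adjusted p = 0.00534) and not in CBDL+DSS (0.52 ± 0.18, adjusted p = 0.0603) or DSS (0.20 ± 0.18, adjusted p = 0.597). The CBDL2w call was lost without Sham6w replicate 1+2+5 (0.62), Sham6w replicate 3+6 (0.58) or CBDL2w replicate 1 (0.49), and the CBDL+DSS change passed without CBDL2w replicate 1 or 3 (adjusted p = 0.034 and 0.0422). The summed share of the 8 classical monocyte markers was above the controls in every injured monocyte library, at 0.239% to 0.319% in Sham6w against 0.406% to 0.513% in CBDL2w, 0.352% to 0.48% in CBDL6w, 0.381% to 0.461% in CBDL+DSS and 0.405% to 0.553% in DSS. Its part in the Ccr2 and Ccr1 levels was not tested.

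Ccr1 of monocytes stood at 13.1, 14.5 and 12.3 in Sham6w and was higher in each ligated library, at 40.2, 35.1, 24.7 and 33 in CBDL2w, at 18.2, 26.1, 52.2 and 26.5 in CBDL6w and at 25.2, 28.6, 30.9 and 33.4 in CBDL+DSS. The change passed in CBDL2w (1.24 ± 0.36, adjusted p = 0.0244) and missed in CBDL6w (1.05 ± 0.36, adjusted p = 0.0671) and CBDL+DSS (1.09 ± 0.36, adjusted p = 0.0507). These calls moved with small changes. The first was lost without the filter on low values, or without any Sham6w library or CBDL2w replicate 1, 2 or 4 (1.15 to 1.3, adjusted p up to 0.071). The second passed with edgeR (1.26, adjusted p = 0.0445), with DESeq2, and without CBDL6w replicate 1 or DSS replicate 1. The third passed with a pseudocount of 5, with equal totals, and without CBDL6w replicate 1 or 3 or any DSS library. With DSS, Ccr1 stood between 5.45 and 17.2, on both sides of the controls (-0.35 ± 0.36, adjusted p = 0.655).

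Cx3cr1 of monocytes fell with colitis alone, from 151, 135 and 157 in Sham6w to 79, 40.7, 79.8 and 71.7 (-1.16 ± 0.24, adjusted p = 0.0281). No DSS library reached a control. The call was lost without Sham6w replicate 1+2+5 (-1.14, adjusted p = 0.0717), Sham6w replicate 3+6 (-1.22) or DSS replicate 4 (-1.20). With ligation the levels overlapped the controls, at 130, 85.6, 149 and 110 in CBDL2w (-0.34 ± 0.24, adjusted p = 0.4) and at 187, 270, 137 and 167 in CBDL6w (0.32 ± 0.24, adjusted p = 0.453). CBDL+DSS libraries stood at 112, 123, 117 and 136 (-0.27 ± 0.24, adjusted p = 0.522). Markers of other cells differed between these monocyte groups: the summed share of 8 patrolling monocyte markers, a kind of monocyte known for high Cx3cr1, was 0.241% to 0.273% in Sham6w and 0.176% to 0.215% in DSS. Its median was lower still with ligation, where Cx3cr1 did not pass, with ranges of 0.15% to 0.195% in CBDL2w, 0.142% to 0.173% in CBDL6w and 0.158% to 0.18% in CBDL+DSS. All members were detected in every group, and their part in the Cx3cr1 level was not tested.

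No injury changed Cxcr4 of monocyte-derived macrophages or monocytes past the threshold. Its 8 changes from Sham6w in these cells ran from -0.52 to 0.38 with adjusted p from 0.324 to 0.996. Among monocytes the CBDL+DSS libraries (33.6, 35.8, 38.6 and 47.9) were the highest, above Sham6w (32.8, 31.4 and 24.6). Among monocyte-derived macrophages the highest library was again Sham6w replicate 1+2+5 (44.6, against 16.3 and 22.6 in the other two), and the CBDL+DSS libraries stood between 27.1 and 33.1.

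The upstream sequences of Ccr1, which rose with CBDL2w in all 3 cell types, and of Cxcr4, which passed for no injury, are shown side by side. They are the 250 bases before the annotated start (RefSeq, GRCm38.p6, minus strand), at chr9:123968693-123968942 for Ccr1 and chr1:128592300-128592549 for Cxcr4, and hold no annotated exon. All 4 genes were matched in that table, and the windows of Ccr2 and Cx3cr1 lay mostly within annotated exons and are not shown. Capitals mark matches to 8 motifs searched on both strands.
Ccr1: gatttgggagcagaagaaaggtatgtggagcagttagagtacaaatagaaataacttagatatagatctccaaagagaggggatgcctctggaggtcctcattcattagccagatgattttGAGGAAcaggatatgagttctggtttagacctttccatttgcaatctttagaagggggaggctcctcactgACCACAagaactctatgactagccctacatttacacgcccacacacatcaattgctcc
Cxcr4: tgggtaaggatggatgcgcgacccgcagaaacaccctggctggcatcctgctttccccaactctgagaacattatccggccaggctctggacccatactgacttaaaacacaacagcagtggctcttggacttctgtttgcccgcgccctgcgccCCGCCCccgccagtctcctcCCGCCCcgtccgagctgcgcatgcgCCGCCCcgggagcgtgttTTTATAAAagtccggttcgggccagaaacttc
The Ccr1 window held the core GAGGAA bound by ETS factors such as PU.1 (129 bases before the start, found in 23.3% of 32851 promoters) and the RUNX motif TGTGGT on the other strand (58 bases before, 14%). The Cxcr4 window held the TATA motif TATAAA on both strands in overlapping letters (30 and 32 bases before the start, 12.4% of promoters) and 3 copies of the GC box GGGCGG on the other strand (50, 75 and 95 bases before, 32.7%). Neither window held the CCAAT box (CCAAT, 33.8% of promoters), the hypoxia core (ACGTG, 16.6%), the AP-1 motif (TGANTCA, 6.75%) or the STAT motif (TTCNNNGAA, 7.02%). G and C made up 43.6% of the Ccr1 window and 61.2% of the Cxcr4 window, against a median of 52.4% over all promoters. These are matches of letters, not measured binding.

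Compared within each injury group, Kupffer cells had the lowest Ccr2 of the 3 cell types throughout. All 10 comparisons of Kupffer cells with another type passed, from -1.53 ± 0.23 against MoMF in CBDL6w (adjusted p = 4.75e-06) to -3.41 ± 0.23 against Mo in DSS (adjusted p = 1.84e-16). Of 7555 genes tested, those passing between KC and MoMF made up 15.9%, 6.63%, 9.66%, 13.5% and 4.88% in Sham6w, CBDL2w, CBDL6w, DSS and CBDL+DSS, those between KC and Mo 16%, 14.4%, 15.3%, 14.7% and 14.4%, and those between MoMF and Mo 6.15%, 2.01%, 2.16%, 2.32% and 4.29%. Between MoMF and Mo, Ccr2 passed in Sham6w (-1.12 ± 0.27, adjusted p = 0.006; lost without MoMF replicate 3, -0.84), and in no injured group, where the differences ran from -0.20 ± 0.23 in CBDL2w to -0.68 ± 0.23 in DSS. In order of mean level, Ccr2 ran from 448 in CBDL6w Mo down to 27 in DSS KC. The top 3 places were ligated monocytes and the lowest 3 were Kupffer cells of CBDL+DSS (38.7), Sham6w (28.5) and DSS (27), of which neither CBDL+DSS nor DSS passed against Sham6w.

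For Cx3cr1 the order of the cell types changed with injury. In Sham6w, Kupffer cells lay below MoMF (-2.41 ± 0.33, adjusted p = 4.07e-07) and Mo (-2.55 ± 0.33, adjusted p = 4.45e-08). MoMF and Mo did not differ past the threshold (-0.14 ± 0.36, adjusted p = 0.879, and 0.15 with edgeR). The MoMF libraries stood at 337 in replicate 1+2+5 and at 71.7 and 99.2, against 135 to 157 in Mo. Without that MoMF library the difference was -0.80 and did not pass either. In CBDL2w, Kupffer cells stood above Mo (1.15 ± 0.31, adjusted p = 0.00576) and within -0.16 ± 0.31 of MoMF (adjusted p = 0.875), and MoMF stood above Mo (1.31 ± 0.31, adjusted p = 0.0104; adjusted p = 0.05 without Mo replicate 2, 1.17). In CBDL6w no pair passed: KC against MoMF was 0.37 ± 0.31 and against Mo 0.73 ± 0.31 (adjusted p = 0.102; 0.0446 without Sham6w KC replicate 1 and 0.047 without Sham6w MoMF replicate 1+2+5).

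With colitis alone Kupffer cells stood below MoMF (-1.96 ± 0.31, adjusted p = 4.22e-06) and Mo (-0.91 ± 0.31, adjusted p = 0.0346). MoMF minus Mo was 1.04 ± 0.31 (adjusted p = 0.0563), which passed with DESeq2, with a pseudocount of 5, and without Sham6w replicate 1 or 3 of KC or 1+2+5 or 3 of MoMF. The difference of KC from Mo was lost without the filter on low values (adjusted p = 0.0706) and without KC replicate 1 or 2 or Mo replicate 1, 3 or 4 (-0.75 to -0.92). In CBDL+DSS, MoMF was above both KC (KC minus MoMF -1.26 ± 0.31, adjusted p = 0.00646) and Mo (1.42 ± 0.31, adjusted p = 0.00217). The mean levels ran from 331 in CBDL+DSS MoMF and 314 in CBDL6w KC (not tested against each other) down to 35 in DSS KC and 30.8 in Sham6w KC.

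Ccr1 and Cxcr4 differed between cell types in other ways. Ccr1 passed in 3 of 15 comparisons, all lower than monocytes. KC in Sham6w was at -2.07 ± 0.43 (adjusted p = 0.000226). It was at -1.97 with only libraries of a single replicate number, which leave 1 Sham6w Mo library. MoMF in Sham6w was at -1.76 ± 0.46 (adjusted p = 0.0118, lost without MoMF replicate 4+6, -1.50). MoMF in DSS was at -1.67 ± 0.40 (adjusted p = 0.0082, lost without MoMF replicate 3 or Mo replicate 2 or 3, -1.39 to -1.50). In the ligated groups no pair of cell types passed for Ccr1. In DSS, KC minus Mo was -1.06 ± 0.40 (adjusted p = 0.0623) and passed without Sham6w KC replicate 1 or 2, DSS KC replicate 3 or DSS Mo replicate 1 (-1.06 to -1.33). Cxcr4 was lower in Kupffer cells in 9 of 10 comparisons, from -2.89 ± 0.44 against Mo in Sham6w (adjusted p = 1.33e-06) to -1.32 ± 0.41 against Mo in CBDL+DSS (adjusted p = 0.0203; lost without KC replicate 1+3 or 4+5 or Mo replicate 6, -1.18 to -1.22, and without the filter on low values). That against Mo in CBDL2w (-1.39 ± 0.41, adjusted p = 0.0131) was lost without KC replicate 2 (-1.10), whose level was 3.43. The one of the 10 that did not pass was KC against MoMF in CBDL+DSS (-0.92 ± 0.41, adjusted p = 0.241). MoMF and Mo did not differ past the threshold in Cxcr4 in any group.

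The size of an injury effect was itself compared between cell types. For Cx3cr1 the effect of ligation was larger in Kupffer cells than in monocytes by 3.70 ± 0.45 at 2 weeks (adjusted p = 5.66e-07) and 3.29 ± 0.45 at 6 weeks (adjusted p = 1.59e-05), and the effect of CBDL+DSS by 2.71 ± 0.45 (adjusted p = 0.000372). Of all genes, 1.67%, 1.58% and 0.821% passed in these 3 comparisons. Against MoMF the effect in Kupffer cells was larger by 2.25 ± 0.45 (adjusted p = 0.00958; 0.344% of genes passed) and 2.78 ± 0.45 (adjusted p = 0.000922; 0.397%). Without the shallow Sham6w MoMF library these were 1.59 (adjusted p = 0.0787) and 2.12 (adjusted p = 0.0325). For Ccr2 the effect in Kupffer cells exceeded that in monocytes by 1.25 ± 0.34 (adjusted p = 0.0435) and 1.28 ± 0.34 (adjusted p = 0.0401). Both of these Ccr2 calls were lost with edgeR (1.18 and 1.27), without the filter on low values, and on leaving out any of 11 libraries (1.10 to 1.34). At 2 weeks and at 6 weeks these included the 3 Sham6w Mo libraries and Sham6w KC replicates 2, 3 and 4. At 2 weeks they also included CBDL2w KC replicates 1 and 4 and Mo replicates 2, 3 and 4, and at 6 weeks CBDL6w KC replicates 2 and 4 and Mo replicates 1, 3 and 4. For Cx3cr1, 5 of 12 such differences passed (of all genes, 1.38% and 0.649% did for MoMF against Mo with CBDL2w and CBDL6w, 0.86%, 0.238% and 0.0397% with DSS, and 1.99% and 2.12% for KC and Mo against MoMF with CBDL+DSS), and without Sham6w KC replicate 1 so did 4 more, those of KC from Mo with DSS (2.14, adjusted p = 0.0062), of KC from MoMF with CBDL+DSS (1.66, adjusted p = 0.015), and of MoMF from Mo with CBDL2w (1.45, adjusted p = 0.0458) and CBDL+DSS (1.56, adjusted p = 0.0205). Without the shallow MoMF library the Cx3cr1 effect also passed for KC against Mo with DSS (1.64) and for MoMF against Mo with CBDL2w (2.11) and CBDL+DSS (2.22), and the Ccr2 effect for MoMF against Mo with CBDL2w (1.36, adjusted p = 0.0331). The Cx3cr1 effect of CBDL+DSS passed against MoMF without Sham6w MoMF replicate 3 (1.60), and in MoMF against Mo without Sham6w KC replicate 3 and with a pseudocount of 5 (1.52). For Ccr1 and for Cxcr4 none of 12 passed. Ccr1 in CBDL6w against Mo (1.86 ± 0.58, adjusted p = 0.095) passed without Sham6w KC replicate 1 (2.23), and Cxcr4 in CBDL+DSS against MoMF (1.77 ± 0.60, adjusted p = 0.118) passed with DESeq2 (2.05) and without DSS KC replicate 4.

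**Figure D3:**
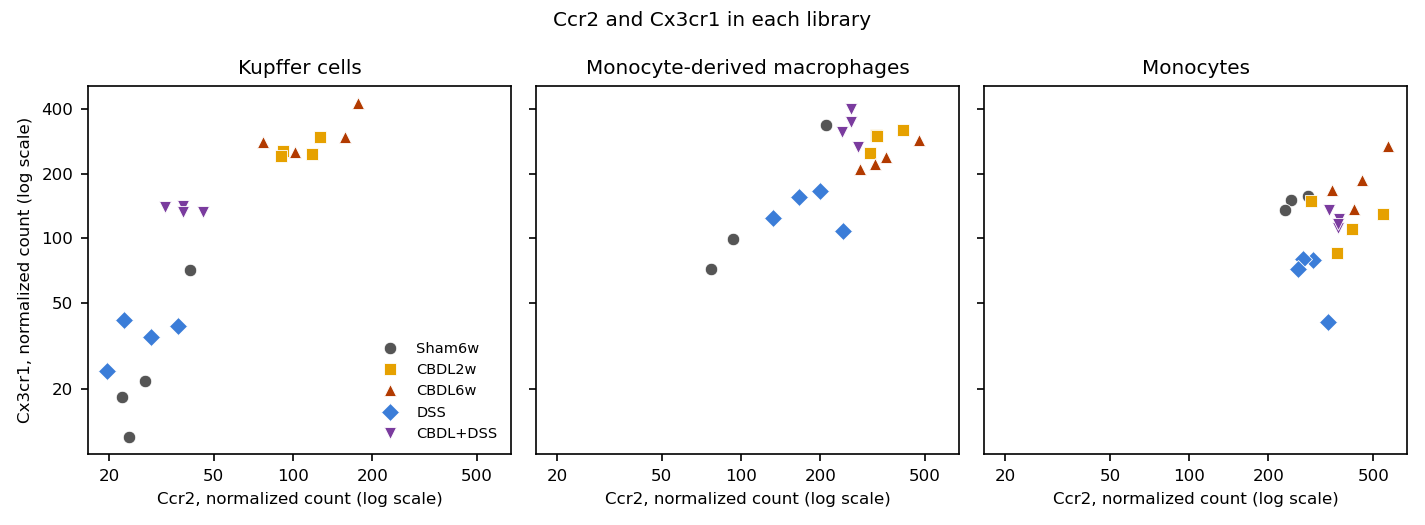
Ccr2 (horizontal axis) against Cx3cr1 (vertical axis) as normalized counts on log scales, 1 point per library, for the 3 cell types. Kupffer cells of CBDL+DSS sit apart, with Ccr2 of 32.8 to 45.7 beside the controls and Cx3cr1 of 133 to 141 above them.

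Within Kupffer cells the receptors varied together, apart from Cxcr4. Over the 20 Kupffer cell libraries and 5417 genes, Pearson's r on the log scale was 0.90 between Cx3cr1 and Ccr1, 0.89 between Ccr2 and Cx3cr1 and 0.73 between Ccr2 and Ccr1, against 0.26 to 0.42 between Cxcr4 and the other three. These libraries share the 5 injury groups, so r describes the pattern over groups and carries no p. The genes most like Ccr2 were Cd93 (r = 0.92), a receptor of myeloid and endothelial cells, Cx3cr1, Slpi, Fn1 and Mef2c. Those most like Cx3cr1 were Cd93 (0.90), Ccr1, Ccr2, Sema4d (0.89) and the tetraspanin Cd63 (0.88). Ccr1 was most like Cx3cr1, the tetraspanin Cd9 (0.89), Gda (0.83), the chemokine Cxcl16 (0.81) and Cd63, and Cxcr4 most like Csf2rb2 (0.91), Btg1 (0.80), Tgif1, Ctsh and Clec4n.

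Over all 58 libraries the nearest genes were in part others, although Btg1 stayed among the 5 nearest of Cxcr4, Gda among those of Ccr1 and Cd93 among those of Cx3cr1. Ccr2 was most like Ptafr (0.90), the receptor of platelet-activating factor, Sorl1 (0.90), the integrin Itgam (0.89), S100a6 and Ctse, a set of 5 that held none of its nearest genes in Kupffer cells. Cxcr4 was most like the antiproliferative genes Btg1 (0.85) and Btg2 (0.82), Sorl1, Zfp36l2 and Mbp. Ccr1 was most like Gda (0.75), Fn1 (0.74), Spp1, Emp1 and Cd93. Cx3cr1 had the lowest values of the 4, with Cd9 (0.72), Cd93, Gsn, Myo5a and Sulf2. Between Ccr2 and Cx3cr1 r was 0.58 over these libraries, and Spearman's rho 0.31.

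Of 19 other chemokine receptors, 16 were in the table and 4 passed the low-value filter in at least 1 cell type. Ccr3, a receptor best known on eosinophils, went against the trend of Ccr1, Ccr2 and Cx3cr1 in Kupffer cells: it fell from 46.5 ± 13.9 in Sham6w to 6.45 ± 6.13 in CBDL2w (-2.94 ± 0.47, adjusted p = 0.000482), 1.57 ± 0.564 in CBDL6w (-4.19 ± 0.47, adjusted p = 9.6e-06) and 2.87 ± 2.09 in CBDL+DSS (-3.74 ± 0.47, adjusted p = 1.43e-05), and stood at 36.3 ± 11.7 in DSS. Of the 20 Kupffer cell libraries, 9 reached 10 for Ccr3. It thus passed the low-value filter there mainly through Sham6w and DSS, where it was high. The p-values of its falls do not account for that, and its levels with ligation were low. Ccrl2, which binds chemerin without known signalling of its own, rose in MoMF with CBDL2w (1.18 ± 0.32, adjusted p = 0.0425) and CBDL+DSS (1.10 ± 0.32, adjusted p = 0.0307).

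Ccr9 and Ackr1 fell in ligated monocytes. Ccr9, a receptor of plasmacytoid dendritic cells and gut-homing lymphocytes, went from 21.4 ± 12.9 in Sham6w to 2.05 ± 4.1 in CBDL2w (adjusted p = 0.00673) and 0.482 ± 0.558 in CBDL+DSS (adjusted p = 0.00476). In CBDL6w it had 0 reads in all 4 libraries, at least 28.5-fold lower when 3 reads over the group are taken as the floor. Ackr1, a decoy receptor of venous endothelium and red cells, went from 9.57 ± 1.66 to between 0.225 and 0.788 on group average in the 3 ligated groups (adjusted p = 0.00627 to 0.0158). Markers of other cells fell in the same libraries. The share of 10 endothelial markers was 0.144% to 0.254% in Sham6w Mo and 0.00841% to 0.0249% in the ligated groups (9 or 10 of 10 detected). That of 6 plasmacytoid dendritic cell markers, of which Ccr9 is 1, was 0.169% to 0.234% (6 of 6 detected) and 0.0319% to 0.0831% (4 to 6 of 6). The share of 9 neutrophil markers, all detected, was 0.0215% to 0.215% in Sham6w Mo and 0.00914% to 0.0725% in the ligated groups, with overlap. Their part in these 2 falls, and in the rises of Ccr1 and Ccr2 of monocytes, was not tested. Of the 19 monocyte libraries, 3 reached 10 for Ackr1 and 6 for Ccr9. Both genes thus passed the low-value filter through groups without ligation, where they were high, and the p-values of their falls do not account for that.

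**Figure D4:**
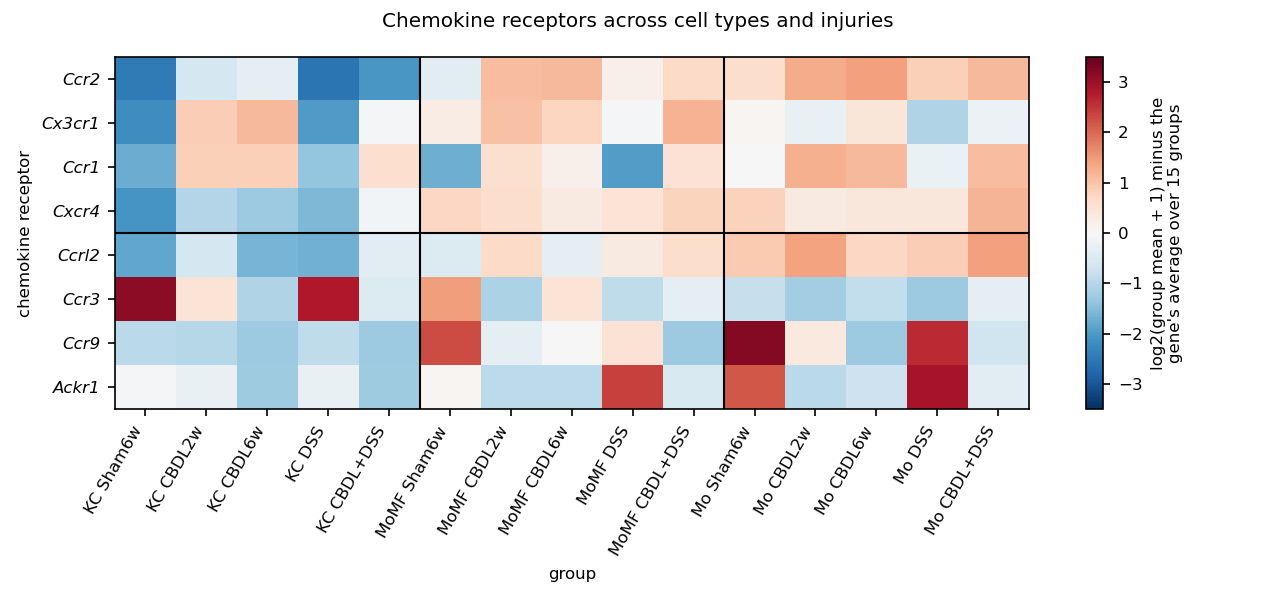
Group means of the 4 receptors (upper block) and the 4 others that passed the filter (lower block) in 15 groups along the horizontal axis, as log2(mean + 1) minus the gene's average over the groups; red is above and blue below that average. In Kupffer cells CBDL2w and CBDL6w are red for Cx3cr1 and Ccr1, while Ccr3 is deepest red with Sham6w and DSS.

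Messenger RNA of the ligands was also read, since these cells can make some of them. All 11 ligands of the 4 receptors were in the table and 5 or 6 were tested per cell type. Cx3cl1, the ligand of Cx3cr1, had reads in 1 of the 15 groups (0.313 on average in DSS KC), and Cxcl12, the ligand of Cxcr4, averaged at most 4.37. In Kupffer cells none of 5 ligands passed with CBDL2w, CBDL6w or DSS, where 2.71%, 3.25% and 7.89% of all genes did. With CBDL+DSS the Ccr1 ligands Ccl6 (from 286 ± 58 to 489 ± 110, 0.77 ± 0.21, adjusted p = 0.0483) and Ccl9 (from 3.62 ± 2.01 to 14.6 ± 5.19, 1.83 ± 0.45, adjusted p = 0.024) rose. The median change of the 5 was 0.25, against 0.02 over all genes tested.

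In MoMF, Ccl2, a ligand of Ccr2, rose with CBDL+DSS from 5.12 ± 4.58 to 28.8 ± 21.1 (2.60 ± 0.78, adjusted p = 0.0378). Ccl5 fell from 121 ± 83.6 to 7.94 ± 4.83 with CBDL2w (-3.48 ± 0.68, adjusted p = 0.00466) and to 2.66 ± 1.88 with CBDL+DSS (-4.87 ± 0.68, adjusted p = 7.85e-05). T and NK cells are known to make Ccl5, and their markers fell in the same libraries. The summed share of the 9 markers was 0.00927% to 0.044% in Sham6w MoMF, 0.0026% to 0.00705% in CBDL2w and 0.000553% to 0.00208% in CBDL+DSS. The part of such cells in the Ccl5 level was not tested. Ccl3 fell with CBDL6w (-1.65 ± 0.40, adjusted p = 0.0404) and Ccl6 with DSS (-0.85 ± 0.22, adjusted p = 0.0411). In Mo, Mif, an alternative ligand of Cxcr4, rose in all 3 ligated groups (1.51 ± 0.31, 1.44 ± 0.31 and 1.20 ± 0.31, adjusted p = 0.00173, 0.00336 and 0.0132). Ccl9 rose with CBDL2w (0.86 ± 0.28, adjusted p = 0.0416) and Ccl6 with CBDL+DSS (0.77 ± 0.17, adjusted p = 0.00456). Outside the naming rule, and added after its value was seen, Ccl6 also rose with CBDL2w (0.82 ± 0.17, adjusted p = 0.00211). Ccl5 fell with CBDL2w (-2.91 ± 0.90, adjusted p = 0.0324). The T and NK cell share in Mo was 0.00337% to 0.0131% in Sham6w (7 of 9 detected) and 0% to 0.00119% in CBDL2w (4 of 9). Its part in that fall was not tested.

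Of 25 to 30 tested genes that carry or end the receptor signal, 0 to 4 passed in any comparison of an injury with Sham6w, where 1.22% to 13.8% of all genes passed. The count was highest in MoMF with CBDL+DSS, 4 of 28 where 9.8% of all genes passed, and in ligated Mo it was 0 to 2 of 30 where 11.2% to 13.8% did. In Kupffer cells Rgs1, which switches off G protein signals, rose with CBDL2w (0.90 ± 0.24, adjusted p = 0.041) and CBDL+DSS (1.43 ± 0.24, adjusted p = 0.000738). Grk2, a kinase that desensitises the receptors, fell with CBDL2w (-0.87 ± 0.21, adjusted p = 0.0243) and DSS (-0.77 ± 0.21, adjusted p = 0.0288), and the arrestin Arrb2, which removes them from the surface, fell with DSS (-1.06 ± 0.20, adjusted p = 0.00224). In MoMF with CBDL+DSS, 3 of 28 rose and 1 fell, with the largest changes in Rgs3 (-2.39 ± 0.75, adjusted p = 0.0453), Rgs10 (2.09 ± 0.41, adjusted p = 0.00205) and Arrb2 (1.42 ± 0.32, adjusted p = 0.00549). In Mo with DSS, Arrb2 (-1.55 ± 0.34, adjusted p = 0.0308) and Rgs2 (-0.74 ± 0.15, adjusted p = 0.0243), which like Rgs1 ends G protein signals, fell. In ligated Mo the G protein subunit Gng10 rose with CBDL2w (0.87 ± 0.26, adjusted p = 0.0274), and with CBDL+DSS the GTPase Rac2 rose (0.90 ± 0.29, adjusted p = 0.0441) and the receptor kinase Grk3 fell (-1.92 ± 0.44, adjusted p = 0.00592). The list's medians in the comparisons with Sham6w lay between -0.28 and 0.05, those of all genes between -0.11 and 0.08.

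Among 8 adhesion molecules of monocyte migration, Itga4, the alpha chain of the integrin VLA-4, was the one that rose beside the receptors in ligated Kupffer cells, from 21.6 ± 1.88 to 43.8 ± 9.97 in CBDL2w (0.96 ± 0.25, adjusted p = 0.041) and 45.5 ± 14.3 in CBDL6w (0.99 ± 0.25, adjusted p = 0.0335). With DSS, Itgam, the alpha chain of the integrin Mac-1, fell in Kupffer cells (-1.08 ± 0.31, adjusted p = 0.0349). In Mo, Itgam rose with CBDL2w (1.07 ± 0.18, adjusted p = 0.000286), CBDL6w (0.57 ± 0.18) and CBDL+DSS (1.10 ± 0.18). Of the 8, 2 rose and 2 fell in Mo with CBDL2w and with CBDL+DSS, where 13.8% and 13.1% of all genes passed. Those that fell were Pecam1 (-1.70 ± 0.41 and -2.02 ± 0.41, adjusted p = 0.00713 and 0.00267), which is also 1 of the endothelial markers given above, and Itgal (-0.81 ± 0.22 and -0.73 ± 0.22, adjusted p = 0.0137 and 0.0303), also a patrolling monocyte marker. The other that rose was Itgb2 (0.59 ± 0.17 and 0.52 ± 0.17, adjusted p = 0.0208 and 0.0453), outside the naming rule there and added after its values were seen. In MoMF, Itgal fell with CBDL2w (-0.73 ± 0.20, adjusted p = 0.0417). With CBDL+DSS, where 9.8% of all genes passed (316 of the 596 were lower), 3 of the 8 fell in MoMF: Itgb1, the beta chain of VLA-4 (from 112 ± 38.5 to 56 ± 16.4, -0.99 ± 0.28, adjusted p = 0.0278), and the leukocyte integrin chains Itgal (-0.68 ± 0.20, adjusted p = 0.0294) and Itgb2 (-0.67 ± 0.20, adjusted p = 0.0346).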

How the data were processed

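Libraries were made from 3′ ends of messenger RNA with unique molecular identifiers, per the labels' protocols. Tools listed without order in the submitters' processing notes are Trimmomatic 0.39 and 0.39-1, UMI-tools 1.0.1, RSEM 1.3.1, STAR 2.7.5b and DESeq2 (version not given), with the build GRCm38.p6. The deposited table holds 1 signal value per gene and library, a count divided by that library's size factor. Dividing by the value of 1 read gave whole reads for 100% of values within 0.01. Symbols came from GENCODE M21 (25272 of 25307 identifiers matched). Groups came from the labels. No libraries were identical; the most alike pair of replicates had a chi-square of 2.81 per degree of freedom. Read numbers set counting error only.

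The 4 receptors and the gene lists were chosen with earlier results of these data known. Some genes of these lists are not reported here and were left out of the lists' counts and sums. limma 3.58.1 (R 4.3.3, trend and robust) was run on log2(normalized count + 1) for genes with at least 10 in at least 3 libraries, with 1 fit per cell type and 1 over all libraries for comparisons between cell types. A gene passed at a two-sided Benjamini-Hochberg adjusted p under 0.05 over all genes of the comparison, and one that did not pass is not shown to be unchanged. The script was tested on simulated data. Deviations of same-numbered libraries correlated weakly at most. Across cell types r was -0.061 to 0.095 over 45 pairs (median 0.035). Across injury groups it was -0.055 to 0.067 over 72 pairs (median 0). The main fits used no pairing. Whether cell types of the same number came from the same mouse is not in the labels, so such a pairing is not excluded. Alternatives were a pseudocount of 5, no filter, equal totals, recovered reads tested with DESeq2 1.42.0 or edgeR 4.0.16, a replicate block, only libraries with a single replicate number, and leaving out each library. Named were other chemokine receptors that passed the filter, up to 3 genes of each further list per comparison by size of change, and for likeness the 5 genes of highest r.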

Additional observations from a re-analysis of the deposited data

Results flagged for a closer look

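Of 52 sets of 4 libraries (1 receptor in 1 group), 3 held a library that stood apart from the other 3 by Dixon's test, where chance gives about 1 in 20. Cx3cr1 in Sham6w Kupffer cells was highest in replicate 1 (71.3). Cxcr4 in CBDL2w MoMF was highest in replicate 4 (33.8). Ccr2 in CBDL+DSS monocytes was lowest in replicate 6 (339).

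Of 60 tested differences between effects, 9 passed, where 0.0397% to 6.02% of all genes passed per comparison. In Kupffer cells the effect of colitis in the ligated liver was lower than without ligation for Ccr2 (-1.56) and Cx3cr1 (-1.65). The Cx3cr1 effect in Kupffer cells exceeded that in monocytes with CBDL2w (3.70), CBDL6w (3.29) and CBDL+DSS (2.71), and that in MoMF with CBDL2w (2.25) and CBDL6w (2.78). The Ccr2 effect in Kupffer cells exceeded that in monocytes with CBDL2w (1.25) and CBDL6w (1.28). Both of these Ccr2 calls and the Cx3cr1 call for colitis were lost with edgeR, without the filter and on leaving out some single libraries. The Cx3cr1 call against MoMF with CBDL2w was lost without the shallow Sham6w MoMF library.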

How the results depend on the processing

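Of 192 results, 60 passed, and none of these 60 reversed under any alternative. Calls were lost for 0 with a pseudocount of 5, equal totals or DESeq2, 7 without the filter, 3 with edgeR and 16 on leaving out some library. No count is given for the replicate block or for single replicate numbers, where many comparisons rest on 1 library of a group. Equal totals moved the median of all genes by over 0.1 in 1 of 48 comparisons (by 0.12, effect of CBDL2w in KC against Mo). Depth limits the low genes most: Ccr1 and Cxcr4 of Kupffer cells, and Ccr1 of MoMF without ligation, have few reads per library.

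Log2 changes that crossed the threshold or turned were as follows, from Sham6w where no other comparison is named. The replicate block took the replicate number in fits of 1 cell type, and the number within its injury group in the fit over all libraries. Joined numbers counted as numbers of their own. With single replicate numbers, Sham6w MoMF kept only replicate 3 and Sham6w Mo only replicate 4. In fits of 1 cell type, the block's changes from Sham6w in MoMF and Mo rest on the same libraries. Those of CBDL+DSS in KC rest on its replicate 2. Calls there speak of 1 library of that group. With the block, calls were lost in KC CBDL+DSS for Ccr1 (3.18) and Cx3cr1 (2.32) and in MoMF for Ccr1 (2.30, 1.95 and 2.07). In Mo they were lost for Ccr1 CBDL2w (1.17), Ccr2 (0.34 and 0.51) and Cx3cr1 DSS (-1.27). Calls were gained in MoMF for Cx3cr1 CBDL2w (2.00) and CBDL6w (1.71). Other calls lost with the block were the difference in the effect of colitis in KC for Ccr2 (-1.42, adjusted p = 0.266) and Cx3cr1 (-1.77, adjusted p = 0.279), Ccr2 KC CBDL+DSS minus CBDL6w (-1.5, adjusted p = 0.536), Ccr1 Sham6w KC minus Mo (-1.36, adjusted p = 0.202) and MoMF minus Mo (-1.04), Ccr2 Sham6w MoMF minus Mo (-0.79), Cxcr4 CBDL+DSS KC minus Mo (-1.25) and the Ccr2 effects in KC against Mo (1.13 and 1.17). With the block, Ccr1 KC CBDL+DSS minus CBDL6w was 0.28, Ccr2 Mo DSS -0.10 and Cx3cr1 Sham6w MoMF minus Mo 0.59 (0.15 with edgeR, 0.16 with DESeq2). With single replicate numbers, calls were lost for the Cx3cr1 difference in the effect of colitis in KC (-1.65). They were also lost in CBDL+DSS for Cx3cr1 KC minus MoMF (-1.23) and Cxcr4 KC minus Mo (-0.96). Values that rest on 1 Sham6w library are given without a call. From Sham6w they were 2.26, 1.91 and 2.19 for Ccr1 MoMF, 2.00 and 1.72 for Cx3cr1 MoMF and 1.36 for Ccr2 MoMF DSS. In Mo they were 1.34 for Ccr1 CBDL2w, 0.48 and 0.64 for Ccr2 and -1.24 for Cx3cr1 DSS. In Sham6w they were -2.08 for Cxcr4 KC minus MoMF and -1.86 for Ccr2 MoMF minus Mo. For Ccr1 they were -1.97 for KC minus Mo and -1.64 for MoMF minus Mo. The effects in KC were 1.36 and 1.89 for Cx3cr1 against MoMF and 1.41 and 1.45 for Ccr2 against Mo. Without the filter Ccr1 was lost in MoMF CBDL6w (1.93) and Mo CBDL2w (1.24). Gains were Ccr1 Mo CBDL+DSS with a pseudocount of 5 (0.91) and equal totals (1.11), Ccr1 Mo CBDL6w with edgeR (1.26) and DESeq2 (1.24), and Cxcr4 KC CBDL+DSS with a pseudocount of 5 (1.3), edgeR (2.21) and DESeq2 (2.25). Ccr2 KC DSS was 0.02 with equal totals, and Cx3cr1 MoMF DSS -0.17 with edgeR and -0.24 with DESeq2. Where no value shows a cause, the cause was not tested.

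On leaving out 1 library at a time, values ranged as follows. In KC with DSS, Cxcr4 went from -0.34 to 0.76, Ccr2 from -0.23 to 0.10 and Cx3cr1 from 0.16 to 0.99. Cxcr4 KC CBDL+DSS went from 1.76 to 2.09. In MoMF Cx3cr1 went from 0.66 to 1.77, 0.38 to 1.49, -0.42 to 0.68 and 0.84 to 1.95 over CBDL2w, CBDL6w, DSS and CBDL+DSS, Ccr1 from 1.67 to 2.18 (CBDL6w) and -0.52 to 0.02 (DSS), and Ccr2 DSS from 0.36 to 1.08. In Mo Ccr1 went from 1.15 to 1.37, 0.77 to 1.26 (CBDL6w) and 1.03 to 1.16 (CBDL+DSS), Ccr2 from 0.49 to 0.79 and 0.46 to 0.60 (CBDL+DSS), and Cx3cr1 DSS from -1.25 to -0.93. Cx3cr1 Sham6w MoMF minus Mo went from -0.80 to 0.31.

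Of the differences in the effect of colitis, 2 passed, against 1 without the filter or with edgeR (Ccr2 in KC). With the block both KC calls were lost, and with single numbers that of Ccr2 in KC was kept. Ccr2 in MoMF, which then rests on 1 Sham6w library, was -1.77 with the block and -1.8 with single numbers. The count of differences that passed was 1 to 3 on leaving out a library. Of the comparisons with Sham6w or between ligated groups in monocytes, 4 passed, against 1 to 6 on leaving out a library. With the block or single numbers those with Sham6w rest on 1 control library, so no count is given. Of the effects compared between cell types, 7 passed, against 5 to 12 on leaving out a library.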
